A study of Arabidopsis thaliana with 21 samples.

Results

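Arabidopsis thaliana switches on a set of genes when its cells run short of sugar, and 10 of them were followed here through wild-type seedlings and 6 transgenic lines. The genes were taken by locus identifier from the deposited table of 32833 genes: the dark-inducible (DIN) genes DIN2 (AT3G60140), SEN1 or DIN1 (AT4G35770), ASN1 or DIN6 (AT3G47340) and DIN10 (AT5G20250), the transcription factor gene bZIP1 (AT5G49450), the F-box genes KMD1 (AT1G80440) and KMD4 (AT3G59940), and the trehalose-6-phosphate synthase genes TPS8 (AT1G70290), TPS10 (AT1G60140) and TPS11 (AT2G18700). They were chosen with earlier results of these data known, so counts of these genes called changed describe the set and are no independent test. The study sequenced RNA from complete seedlings, 7 days old, of the wild type Col, of 3 lines named NEET (NEET10-10, NEET5-4 and NEET11-9) and of 3 lines named H89C (H89C4-7, H89C11-7 and H89C23-10), with 3 libraries for each of these 7 groups. All seedlings grew in liquid culture in 0.5x MS medium and none received a further treatment. The series is about AtNEET (AT5G51720), a small protein with an iron-sulfur cluster, and its title calls H89C a dominant-negative form of that protein. No promoter, tag or insertion site is given in the labels, and each line is a single transgenic line.

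In plants, low sugar activates the kinase SnRK1, which slows growth and starts the breakdown of amino acids, cell wall sugars and other reserves. The DIN genes were found through their rise in darkness and are repressed by sugar, and bZIP1 is among the factors that act downstream of SnRK1 on ASN1 and related genes. Trehalose-6-phosphate, a signal of sucrose supply, is made by TPS1, inhibits SnRK1 in growing tissue, and is removed by trehalose-6-phosphate phosphatases, while the class II TPS proteins, among them TPS8, TPS10 and TPS11, have no established synthase activity. Kiss-me-deadly (KMD) F-box proteins mark type-B response regulators of cytokinin signalling and phenylalanine ammonia-lyase for breakdown.

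Values are counts per gene that the authors had scaled to a common library size, called normalized counts below, and changes are differences of log2(normalized count + 1) with their standard error (SE) from limma, a linear model with a spread per gene shared over the 21 libraries. A gene was called changed at a Benjamini-Hochberg adjusted p under 0.05 over 20699 tested genes, and 9 of the 10 genes were tested. Library depth was 17.88 M to 24.68 M reads (M, mega), except in Col replicate 3 with 8.24 M. Among the 9 tested genes the scarcest called value, DIN2 in NEET5-4, rested on 43 to 80 reads per library. DIN11 and GPT2, read below from lists of other genes, were scarcer still in Col, so their folds rest on few reads there. Col replicate 1 and NEET10-10 replicate 1 were unlike the rest of their groups, with a chi-square per degree of freedom over genes of 15.4 and 11.4 against replicate 2, while the pairs of replicates without either of them had 1.43 to 2.83. Nothing in the labels shows that the replicates of a group were grown separately. The p-values then measure only the spread among these RNA libraries, and that spread could be technical. In whole seedlings, fewer cells of a type and less RNA per cell cannot be told apart.

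AtNEET itself, read as the check of the labels, had a normalized count of 367, 186 and 230.4 in the Col libraries. Its mean was 32837 ± 1901 (SD, n = 3) in NEET10-10, 18191 ± 528 in NEET5-4, 16100.2 ± 895 in H89C4-7, 2380.4 ± 109.8 in H89C11-7 and 1299 ± 74.0 in H89C23-10. In the library group labelled NEET11-9 it was 330.3, 338 and 327, within the range of the Col libraries, and limma called it higher than Col by log2 0.40 ± 0.13 (1.32-fold, adjusted p = 0.0404). Gene counts do not separate the transgene from the endogenous gene.

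The promoters of 5 of the genes, the 250 bases before the annotated gene start, are printed here. The 4 that hold TATCCA are shown because it was found in a larger share of these genes than of all promoters, and DIN2 is shown because it had the widest range of levels and holds no match. Sequences are from RefSeq, assembly TAIR10.1, and read 5′ to 3′ on the strand of the gene. Capitals mark matches on either strand to any of 4 motifs. CACGTG is the G-box, a common binding site of bZIP factors. Its core ACGT was searched too and overlaps it. Group S bZIP factors bind ACTCAT in the proline dehydrogenase promoter. In rice, TATCCA is an element of alpha-amylase promoters that act under sugar starvation. The windows lie at chr3:17441432-17441681 on the minus strand (ASN1), chr1:30241202-30241451 on the plus strand (KMD1), chr1:22181741-22181990 on the minus strand (TPS10), chr2:8108648-8108897 on the plus strand (TPS11) and chr3:22216290-22216539 on the plus strand (DIN2).
ASN1: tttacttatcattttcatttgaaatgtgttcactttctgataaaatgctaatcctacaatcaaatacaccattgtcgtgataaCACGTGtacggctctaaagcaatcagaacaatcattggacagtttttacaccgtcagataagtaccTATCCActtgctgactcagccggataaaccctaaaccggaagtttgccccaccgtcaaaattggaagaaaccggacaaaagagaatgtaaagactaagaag
KMD1: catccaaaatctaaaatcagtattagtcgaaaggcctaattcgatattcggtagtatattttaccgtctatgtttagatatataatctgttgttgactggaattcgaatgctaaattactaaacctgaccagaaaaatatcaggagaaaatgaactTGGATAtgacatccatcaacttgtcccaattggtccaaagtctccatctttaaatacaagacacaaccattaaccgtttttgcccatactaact
TPS10: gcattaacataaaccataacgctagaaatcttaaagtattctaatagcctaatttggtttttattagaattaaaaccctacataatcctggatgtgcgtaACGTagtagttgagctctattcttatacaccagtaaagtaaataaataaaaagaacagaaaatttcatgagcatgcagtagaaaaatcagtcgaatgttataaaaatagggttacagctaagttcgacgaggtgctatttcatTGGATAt
TPS11: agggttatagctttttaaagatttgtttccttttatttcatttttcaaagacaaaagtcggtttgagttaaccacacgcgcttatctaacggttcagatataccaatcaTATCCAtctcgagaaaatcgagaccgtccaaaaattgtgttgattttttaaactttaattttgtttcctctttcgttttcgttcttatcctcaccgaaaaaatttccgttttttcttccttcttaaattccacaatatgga
DIN2: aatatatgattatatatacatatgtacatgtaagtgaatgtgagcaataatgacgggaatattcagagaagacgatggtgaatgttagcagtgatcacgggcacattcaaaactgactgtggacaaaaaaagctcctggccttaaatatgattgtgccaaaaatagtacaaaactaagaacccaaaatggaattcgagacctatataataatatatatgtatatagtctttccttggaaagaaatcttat

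TATCCA began 101 bases before the start of ASN1, 94 before KMD1, 7 before TPS10 and 141 before TPS11. It was present in 4 of the 9 promoters searched, against 13.6% of 27443 promoters of the same length. ACGT was present in 4 of 9 (ASN1, DIN10, TPS8 and TPS10) against 44.1%, CACGTG in 1 of 9, ASN1 at 167 bases before the start, against 6.49%, and ACTCAT in none of the 9 against 12.3%. A match is a description of these letters in this window. None of the 4 motifs occurred in the windows of DIN2, SEN1 and KMD4.

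The genes differ widely in how much RNA they gave in Col. Per kilobase of annotated exon, the mean normalized count in Col was 3780.3 for DIN10, 3389 for KMD1, 3101 for SEN1, 1914 for ASN1, 1676 for TPS8, 862 for TPS11, 799 for bZIP1, 531 for TPS10 and 130.1 for DIN2. DIN2 was thus the lowest of the tested genes in the wild type, and in H89C4-7 it stood at 6323 per kilobase, above TPS8 at 2937 and below SEN1 at 20214. The 10 genes together took 0.192% ± 0.00357 (SD, n = 3) of all normalized counts in Col, 0.543% ± 0.0130 in H89C4-7, 0.385% ± 0.0134 in NEET10-10, 0.360% ± 0.00150 in NEET5-4, 0.263% ± 0.00376 in H89C11-7, 0.157% ± 0.00341 in H89C23-10 and 0.144% ± 0.00192 in NEET11-9.

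KMD4 gave no usable value. It read between 0 and 3.03 normalized counts in every one of the 21 libraries and did not pass the filter for testing. KMD4 occupies chr3:22142856-22144439 (TAIR10.1, plus strand), and all 1540 of its exon bases in that annotation are also covered by genes of the minus strand: 1382 by the long noncoding RNA gene AT3G09275, which read 0 in every library, and 160 by AT3G59950, which read 665 to 935. KMD3 (AT2G44130), another member of the family, is also covered over 100% of its exon bases and read 0 in Col. Among protein-coding nuclear genes with over 80% of their exon bases covered by other genes on either strand, 625 of 704 (88.8%) had a mean below 1. Among those with no covered base it was 4424 of 19821 (22.3%). These counts do not separate cover by the same strand from cover by the other strand. Which program counted the reads, and with which strand setting, is not stated in the sources used here, so these values do not say whether KMD4 RNA was present.

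At least 6 of the 9 tested genes rose in each of 4 lines and at least 6 fell in each of the other two, and both constructs were found on both sides. In H89C4-7, 8 of the 9 tested genes were higher than in Col and KMD1 was lower, where 66.6% of all tested genes were called, 33.6% higher and 33.0% lower. NEET10-10 had 8 higher and none lower, where 30.3% of all genes were called (15.6% higher, 14.7% lower). NEET5-4 had 6 higher and 2 lower, against 31.0% of all genes (14.1% higher, 16.9% lower). In H89C11-7, 6 were higher and ASN1 was lower, against 37.7% (19.8% higher, 17.9% lower). H89C23-10 had 6 lower and only DIN2 higher, against 22.1% (11.5% higher, 10.5% lower). NEET11-9 had 7 lower and none higher, against 10.9% (4.49% higher, 6.44% lower). Of the 54 results against Col, 46 were called, 29 higher and 17 lower.

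The sizes of these changes were also above those of the typical gene. The median log2 change of the 9 genes was 1.34 in H89C4-7, 0.85 in NEET10-10, 0.35 in H89C11-7, 0.34 in NEET5-4, -0.50 in H89C23-10 and -0.54 in NEET11-9, while the median over all tested genes lay between -0.00202 and 0.00719. Without regard to sign, the median change of the 9 genes was 1.34 in H89C4-7 against 0.39 over all genes, 0.85 in NEET10-10 against 0.17, 0.61 in NEET5-4 against 0.17, 0.39 in H89C11-7 against 0.20, 0.56 in H89C23-10 against 0.15 and 0.54 in NEET11-9 against 0.12. All 6 comparisons use the same 3 Col libraries. Without Col replicate 1 and NEET10-10 replicate 1, a check added after seeing the data, the counts higher and lower became 8 and 1 in H89C4-7 (34.2% and 33.1% of all tested genes), 8 and 1 in NEET10-10 (13.4% and 12.8%) and 6 and 2 in NEET5-4 (14.5% and 17.9%). They became 7 and 1 in H89C11-7 (21.3% and 19.6%), 1 and 6 in H89C23-10 (12.5% and 12.1%) and 0 and 8 in NEET11-9 (5.04% and 7.64%).

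**Figure D1:**
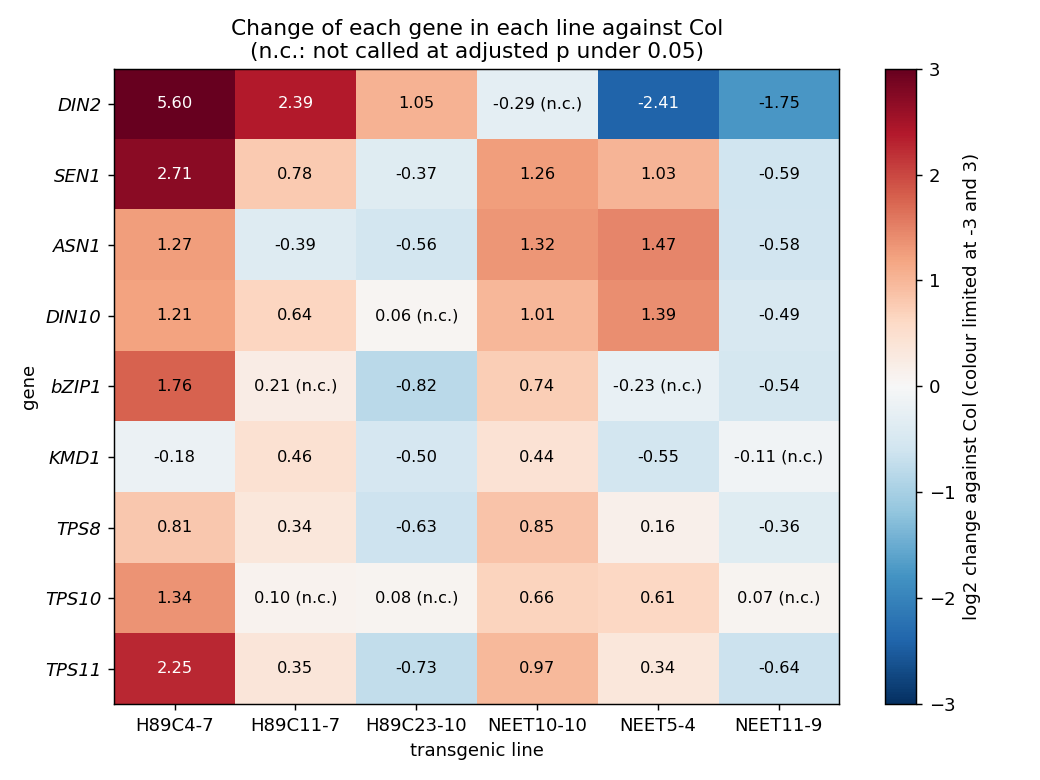
Log2 change against Col of the 9 tested genes (rows) in the 6 transgenic lines (columns), with the value printed in each cell and colour limited at -3 and 3; n.c. marks changes not called by limma at an adjusted p under 0.05. The H89C4-7 and NEET10-10 columns are mostly above 0 and the H89C23-10 and NEET11-9 columns mostly below 0, and DIN2 runs from 5.60 in H89C4-7 to -2.41 in NEET5-4.

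**Figure D2:**
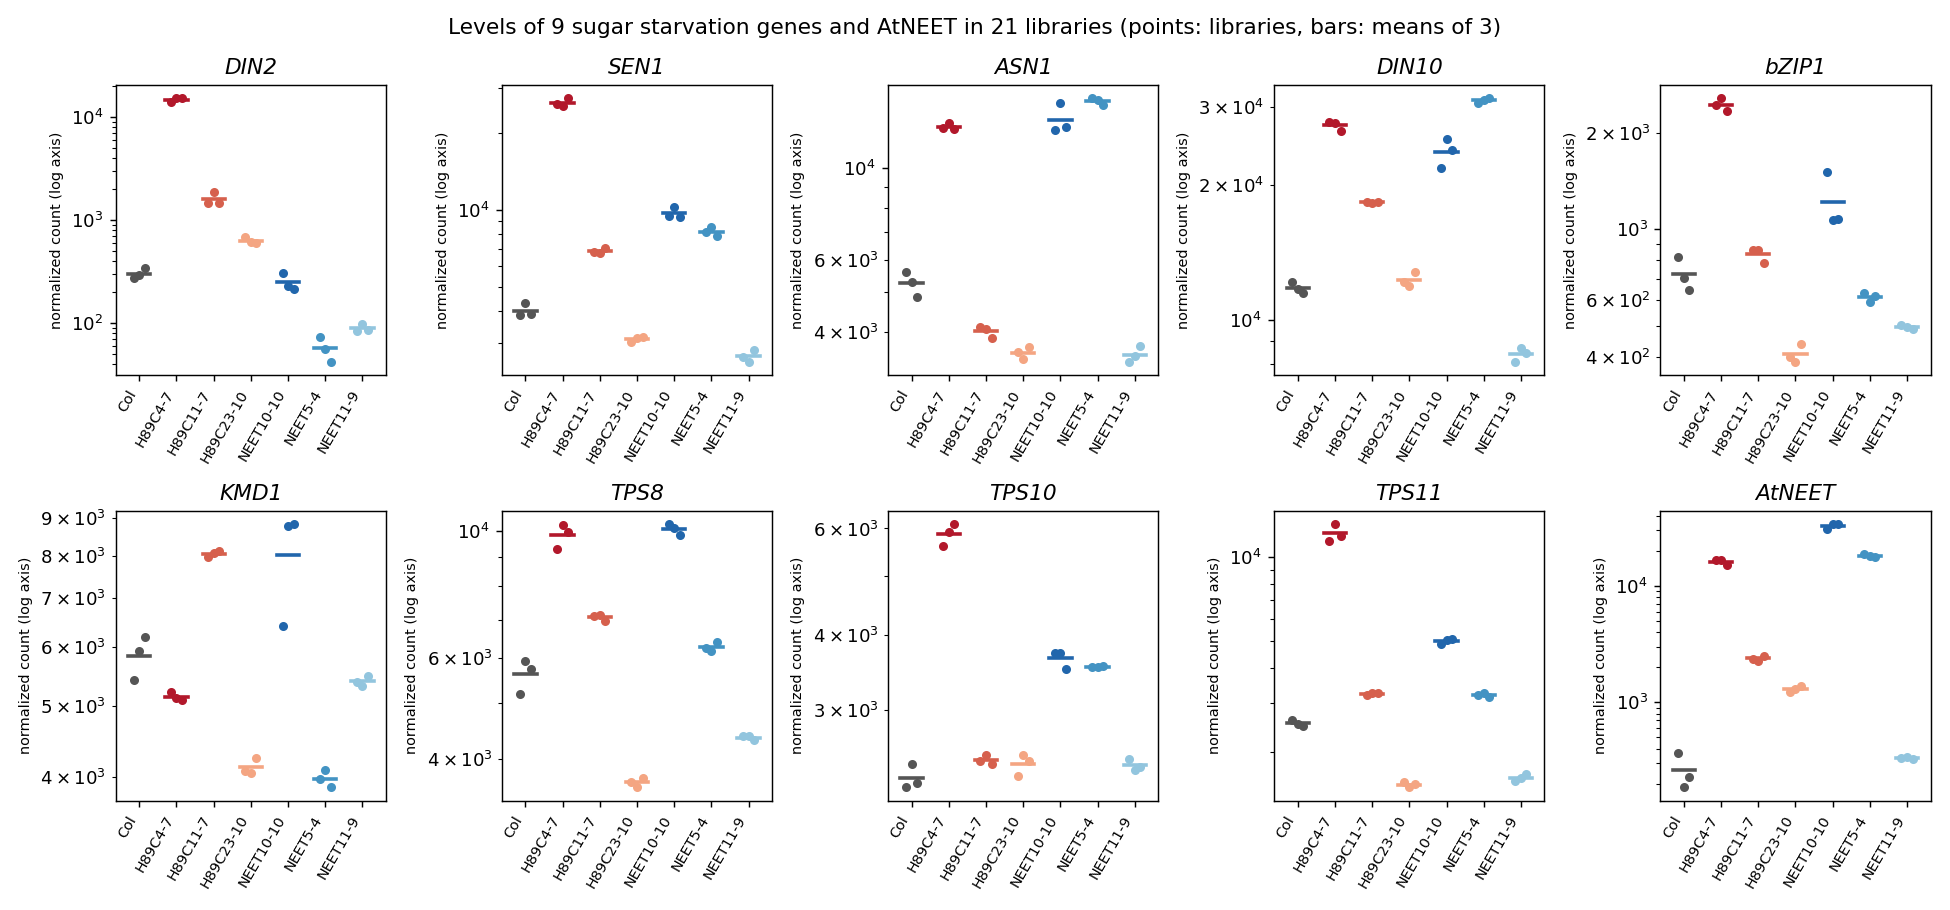
Normalized count (log axes, a separate scale for each gene) of the 9 tested genes and of AtNEET in the 21 libraries, with 1 point per library and a bar at the mean of 3. DIN2 is above Col in all 9 H89C libraries, whereas ASN1 and DIN10 are high in H89C4-7, NEET10-10 and NEET5-4.

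DIN2 encodes a beta-glucosidase that is a classic marker of dark and sugar starvation, and it had the widest range of the 9 genes. Its normalized count was 277, 294 and 341 in the Col libraries. It read 13911, 15243 and 15141 in H89C4-7, 1463, 1879 and 1464 in H89C11-7 and 680.0, 608 and 598 in H89C23-10. Every library of each H89C line was above every Col library, with a log2 change of 5.60 ± 0.14 (SE) in H89C4-7, 2.39 ± 0.14 in H89C11-7 and 1.05 ± 0.14 in H89C23-10 (limma adjusted p = 4.55e-21, 2.27e-12 and 4.72e-06). These are rises of 48.6-fold, 5.24-fold and 2.07-fold.

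Among the NEET lines the same gene read 307, 229 and 217 in NEET10-10, 73.7, 56.9 and 42.5 in NEET5-4 and 84.9, 98.8 and 85.7 in NEET11-9. It fell in NEET5-4 and NEET11-9, where no library reached the lowest Col library. The changes were -2.41 ± 0.14 and -1.75 ± 0.14 on the log2 scale (limma adjusted p = 4.59e-13 and 1.33e-09). NEET10-10 overlapped Col, with a log2 difference of -0.29 ± 0.14 that was not called (adjusted p = 0.131). Without NEET10-10 replicate 1, the library that stands apart, this difference was -0.44 and was called (adjusted p = 0.0259).

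SEN1, a senescence-associated gene that darkness induces and sugar represses, differed between all 7 groups. Its normalized count was 3856, 4316 and 3893 in Col. H89C4-7 had 25953, 25414 and 27284, H89C11-7 6801, 6786 and 7059 and H89C23-10 3022, 3148 and 3166, and NEET10-10 had 9421, 10230.4 and 9311, NEET5-4 8193, 8542 and 7856 and NEET11-9 2642, 2542 and 2814. None of the 6 lines overlapped Col: 4 lay above it and H89C23-10 and NEET11-9 lay below. The log2 change was 2.71 ± 0.05 in H89C4-7, 1.26 ± 0.05 in NEET10-10, 1.03 ± 0.05 in NEET5-4 and 0.78 ± 0.05 in H89C11-7 (limma adjusted p = 3.05e-23, 1.59e-15, 1.98e-14 and 1.69e-11). It was -0.37 ± 0.05 in H89C23-10 and -0.59 ± 0.05 in NEET11-9 (limma adjusted p = 8.34e-06 and 5.32e-09). SEN1 was the only one of the 9 genes for which all 6 neighbouring pairs in the order of the group means were called apart.

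ASN1 makes asparagine, which carries nitrogen when carbon is scarce, and its levels formed a high and a low set of groups. It read 5599, 5303 and 4866 in Col, 12536, 12858 and 12459 in H89C4-7, 12361, 14379 and 12622 in NEET10-10 and 14806, 14647 and 14259.7 in NEET5-4. The other lines had less than Col, with 4108, 4068 and 3866 in H89C11-7, 3581, 3435 and 3671 in H89C23-10 and 3388, 3488 and 3687 in NEET11-9. The high lines rose, with log2 changes of 1.27 ± 0.05, 1.32 ± 0.05 and 1.47 ± 0.05 (limma adjusted p = 2.31e-16, 2.06e-15 and 4.84e-17). The low lines fell below every Col library, with log2 changes of -0.39 ± 0.05, -0.56 ± 0.05 and -0.58 ± 0.05 (limma adjusted p = 4.15e-06, 3.21e-08 and 2.6e-08). ASN1 was the 1 gene of the 9 that was lower in H89C11-7. It shares 11 exon bases with AT3G47341 on the other strand, which read 0 in every library.

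DIN10 belongs to the family of raffinose synthases and was the most abundant of the 9 genes per kilobase in Col. Its libraries ranged from 11483 to 12169 in Col, 30618 to 31327 in NEET5-4, 26438 to 27774 in H89C4-7, 21839 to 25327 in NEET10-10 and 18297 to 18327 in H89C11-7. These 4 lines lay above all Col libraries, by log2 1.39 ± 0.05, 1.21 ± 0.05, 1.01 ± 0.05 and 0.64 ± 0.05 (limma adjusted p = 2.1e-17, 6.9e-17, 5.14e-14 and 2.8e-10). H89C23-10 overlapped Col at 11915 to 12787 (log2 0.06 ± 0.05, adjusted p = 0.423), and NEET11-9 was lower at 8078 to 8659 (log2 -0.49 ± 0.05, adjusted p = 7.17e-08). The NEET5-4 level was the highest of the 7 groups, as it was for ASN1. At its end DIN10 shares 82 exon bases with AT5G20260 on the other strand, which read at most 29.3.

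bZIP1, the transcription factor gene of the set, rose in H89C4-7 and NEET10-10 and fell in H89C23-10 and NEET11-9. It read 821, 707 and 647 in Col. The H89C lines had 2435, 2566 and 2345 in H89C4-7, 864, 864 and 783 in H89C11-7 and 401, 387 and 439.8 in H89C23-10. NEET10-10 had 1512, 1071 and 1079.7, NEET5-4 632, 594 and 617 and NEET11-9 504, 497 and 490.3. In NEET10-10 the first library was well above the other two, and that library stands apart in general. The log2 change was 1.76 ± 0.10 in H89C4-7, 0.74 ± 0.10 in NEET10-10, -0.54 ± 0.10 in NEET11-9 and -0.82 ± 0.10 in H89C23-10 (limma adjusted p = 1.93e-14, 1.52e-06, 0.00032 and 5.1e-07). Without NEET10-10 replicate 1 and Col replicate 1 the NEET10-10 change was 0.67. H89C11-7 overlapped Col and was not called (0.21 ± 0.10, adjusted p = 0.0804), but it was called without Col replicate 1 (log2 0.31, adjusted p = 0.0128). NEET5-4 lay just below Col and was not called (-0.23 ± 0.10, adjusted p = 0.0667), but it was called without Col replicate 3 (log2 -0.31, adjusted p = 0.0232). Without Col replicate 1 and NEET10-10 replicate 1 together its change was smaller and not called (log2 -0.14, limma adjusted p = 0.0749).

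KMD1 went against most of the other genes in H89C4-7 and NEET5-4 and with most of them in H89C11-7, H89C23-10 and NEET10-10. Its Col libraries read 5410.2, 5929 and 6198, against 5221, 5119 and 5086 in H89C4-7, 7966, 8058 and 8116 in H89C11-7 and 4074, 4051 and 4236 in H89C23-10. The NEET lines had 6426, 8783 and 8843 in NEET10-10, 3973, 4082 and 3867 in NEET5-4 and 5385, 5319 and 5480.4 in NEET11-9. It rose in H89C11-7 and NEET10-10, by log2 0.46 ± 0.08 and 0.44 ± 0.08, and fell in NEET5-4 and H89C23-10, with log2 changes of -0.55 ± 0.08 and -0.50 ± 0.08 (limma adjusted p = 2.62e-05, 6.61e-05, 1.75e-06 and 2.08e-05). In H89C4-7, where the other 8 genes rose, it was slightly lower (-0.18 ± 0.08, adjusted p = 0.0354). That call was lost without Col replicate 2 (adjusted p = 0.0808), without Col replicate 3 (0.147) and without H89C4-7 replicate 1, 2 or 3 (0.0547, 0.0748 and 0.0823). It was kept without Col replicate 1 and NEET10-10 replicate 1 together, the check added after seeing the data (log2 -0.24, limma adjusted p = 3.78e-07). NEET11-9 overlapped Col (-0.11 ± 0.08, adjusted p = 0.37). Its family member KMD2 (AT1G15670), which is no part of the 10, rose by 0.36 in H89C4-7 and changed by -0.21 in H89C11-7 and -0.44 in H89C23-10 (limma adjusted p = 0.000289, 0.04 and 0.000153).

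The class II trehalose-6-phosphate synthase genes TPS8, TPS10 and TPS11 all rose in H89C4-7, NEET10-10 and NEET5-4. TPS11 had the widest range of the 3. It read 2614, 2519 and 2486 in Col, 11427, 13119 and 11884 in H89C4-7 and 4858, 5026 and 5084 in NEET10-10. H89C11-7 had 3199.7, 3267 and 3259 and NEET5-4 3214, 3253 and 3153, both above Col, and H89C23-10 had 1561, 1497 and 1537 and NEET11-9 1581, 1621 and 1669.9, both below it. No line overlapped Col. The log2 change was 2.25 ± 0.05 in H89C4-7, 0.97 ± 0.05 in NEET10-10, 0.35 ± 0.05 in H89C11-7 and 0.34 ± 0.05 in NEET5-4 (limma adjusted p = 9.3e-23, 2.38e-14, 1.16e-06 and 1.74e-06). It was -0.73 ± 0.05 in H89C23-10 and -0.64 ± 0.05 in NEET11-9 (limma adjusted p = 1.45e-11 and 1.02e-10).

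TPS8 stood at much the same level in NEET10-10, at 9819 to 10288, and in H89C4-7, at 9301 to 10254, and their ranges overlapped. Col had 5181 to 5932, H89C11-7 6971 to 7135, NEET5-4 6172 to 6402, NEET11-9 4313 to 4373 and H89C23-10 3561 to 3700.1, none of which overlapped Col. The log2 change was 0.85 ± 0.05 in NEET10-10, 0.81 ± 0.05 in H89C4-7 and 0.34 ± 0.05 in H89C11-7, and -0.36 ± 0.05 in NEET11-9 and -0.63 ± 0.05 in H89C23-10 (limma adjusted p = 4.91e-13, 6.79e-14, 3.14e-06, 3.3e-06 and 2.64e-10). The rise in NEET5-4 was small (0.16 ± 0.05, adjusted p = 0.00916) and was not called without Col replicate 1 (log2 0.10, adjusted p = 0.0595) or with the spread of NEET5-4 and Col alone (adjusted p = 0.0939).

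TPS10 differed from both in that no line was called below Col. Its libraries ranged from 2234 to 2442 in Col and from 5621 to 6106 in H89C4-7, with 3516 to 3725 in NEET10-10 and 3533 to 3554 in NEET5-4. These 3 lines rose, by log2 1.34 ± 0.05, 0.66 ± 0.05 and 0.61 ± 0.05 (limma adjusted p = 1.43e-18, 3.73e-11 and 4.14e-11). The other lines had 2447 to 2524 in H89C11-7, 2336 to 2529 in H89C23-10 and 2383 to 2494 in NEET11-9, with log2 differences from Col of 0.10 ± 0.05, 0.08 ± 0.05 and 0.07 ± 0.05 that were not called (adjusted p = 0.0886, 0.233 and 0.354). H89C11-7 was called without Col replicate 2 (log2 0.14, adjusted p = 0.0267).

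H89C4-7 was set against the NEET lines with much AtNEET RNA, to compare lines of both constructs at high transcript levels. Each comparison sets a single line against a single line, so construct and line cannot be told apart. AtNEET was not called different between H89C4-7 and NEET5-4 (log2 -0.18 ± 0.13, limma adjusted p = 0.221). Every H89C4-7 library still lay below every NEET5-4 library (15072 to 16707 against 17667 to 18723), so equal levels are not shown. AtNEET was lower in H89C4-7 than in NEET10-10 (log2 -1.03 ± 0.13, adjusted p = 1.04e-07). Against NEET5-4, 7 of the 9 genes were higher in H89C4-7 and 2 were lower, where 67.4% of all tested genes were called (34.5% higher, 32.8% lower). Against NEET10-10, 6 were higher and KMD1 was lower, where 66.3% were called (33.5% higher, 32.7% lower). Both comparisons use the same H89C4-7 libraries.

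DIN2 differed most, by log2 8.01 ± 0.14 from NEET5-4 and 5.89 ± 0.14 from NEET10-10 (limma adjusted p = 3.88e-24 and 2.09e-21). bZIP1, TPS11 and SEN1 were also higher than in both NEET lines. bZIP1 was higher by log2 1.99 ± 0.10 and 1.02 ± 0.10, TPS11 by 1.92 ± 0.05 and 1.28 ± 0.05, and SEN1 by 1.68 ± 0.05 and 1.44 ± 0.05, from NEET5-4 and NEET10-10 in that order. TPS10 was higher by 0.73 ± 0.05 and 0.69 ± 0.05. ASN1 and DIN10, by contrast, were slightly lower in H89C4-7 than in NEET5-4 (log2 -0.21 ± 0.05 and -0.18 ± 0.05, limma adjusted p = 0.00177 and 0.00203). From NEET10-10, ASN1 and TPS8 were not called different (-0.05 ± 0.05 and -0.04 ± 0.05, adjusted p = 0.402 and 0.511), and DIN10 was higher by 0.20 ± 0.05 (adjusted p = 0.000842). KMD1 was higher than in NEET5-4 by 0.37 ± 0.08 and lower than in NEET10-10 (-0.63 ± 0.08, adjusted p = 0.000112 and 6.87e-08).

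**Figure D3:**
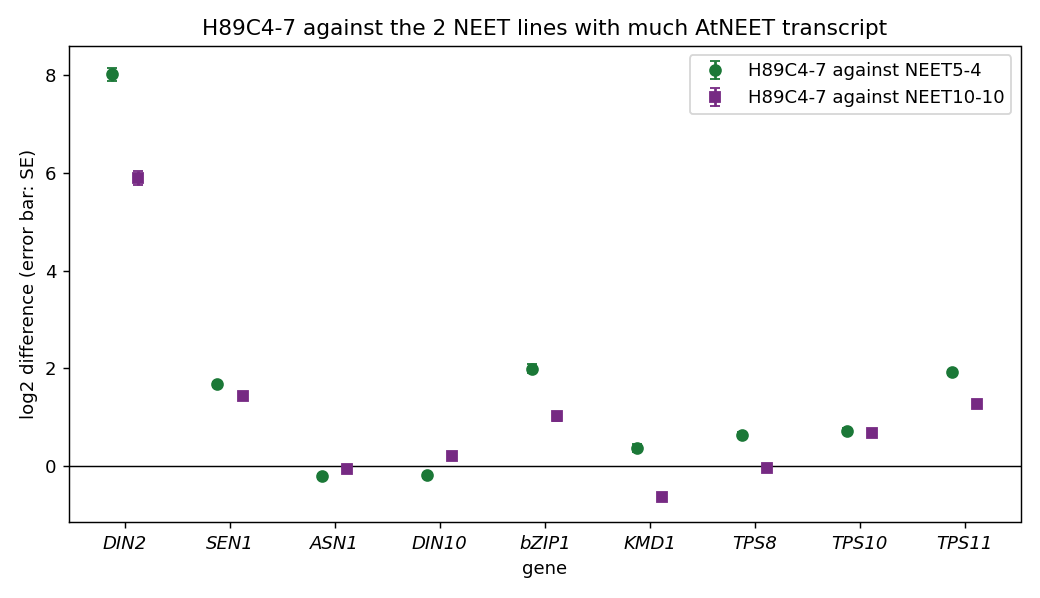
Log2 difference of H89C4-7 from NEET5-4 (circles) and from NEET10-10 (squares) for the 9 tested genes, with the SE as error bar, 3 libraries per line. DIN2 lies at 8.01 and 5.89, bZIP1, SEN1 and TPS11 between 1.02 and 1.99, and ASN1 and DIN10 close to 0.

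Averaged over the 3 lines of a construct, 7 of the 9 genes were higher in H89C than in Col and none lower, where 49.8% of all tested genes were called (26.0% higher, 23.8% lower). Over the 3 NEET lines, 6 were higher and DIN2 was lower, where 25.6% were called (12.3% higher, 13.3% lower). These averages rest on single lines: without H89C4-7 the H89C average had 3 genes higher and 4 lower, against 18.0% and 16.2% of all tested genes, and without NEET10-10 the NEET average had 4 higher and 4 lower, against 10.2% and 12.8%. The averages for DIN2 were log2 3.01 ± 0.12 in H89C and -1.48 ± 0.12 in NEET (limma adjusted p = 2.24e-16 and 4.83e-10), and the averages of DIN10 were 0.63 and 0.64. Their SE leaves out the spread between lines.

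With the line as the unit, 3 H89C line means against 3 NEET line means, limma called none of the 9 genes and none of the 20699 genes tested (0%), and limma on line means of log2 counts per M recovered reads, scaled by edgeR, also called 0. At an unadjusted p under 0.05 there were 2350 genes, 11.4% of those tested, and 1 of the 9, DIN2. DIN2 was higher in the H89C lines by log2 4.49 ± 1.16 (unadjusted p = 0.00679, adjusted p = 0.438). It was also the 1 gene of the 9 for which each H89C line mean (14765, 1602 and 628) exceeded each NEET line mean (251, 57.7 and 89.8), and 23.0% of all tested genes had line means that were apart in this way in either direction. The other 8 had log2 differences from -0.63 (SE 0.69, ASN1) to 0.47 (SE 0.84, SEN1).

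The order of the 7 groups differed from gene to gene. Of the 54 neighbouring pairs in the 9 orders, 37 were called apart, where 13.5% of the neighbouring pairs of all tested genes, each gene in its own order, were called apart. For DIN2 the order ran from H89C4-7 through H89C11-7 and H89C23-10 to Col and NEET10-10, which were not called apart, and then to NEET11-9 and NEET5-4. For ASN1 it ran from NEET5-4 to NEET10-10 and H89C4-7, of which the last pair was not called apart, then to Col, H89C11-7, and finally H89C23-10 and NEET11-9, which were not called apart. H89C4-7 was highest for DIN2, SEN1, bZIP1, TPS10 and TPS11, NEET5-4 for ASN1 and DIN10, NEET10-10 for TPS8 and H89C11-7 for KMD1, although the leading pair was not called apart for TPS8 and KMD1. Only 2 of 6 neighbouring pairs were called apart for TPS10 and for KMD1.

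Over the 7 group means on the log2 scale, SEN1 and TPS11 had a Pearson r of 0.98, bZIP1 and TPS11 0.98, and ASN1 and DIN10 0.88. ASN1 had an r of 0.06 with DIN2, and KMD1 had its highest r, 0.54, with TPS8. With AtNEET itself the r over the 7 group means was 0.93 for DIN10, 0.86 for ASN1, 0.80 for SEN1, 0.79 for TPS10, 0.74 for TPS8, 0.71 for TPS11, 0.59 for bZIP1, 0.21 for DIN2 and 0.07 for KMD1. These values describe 7 points that share libraries and scaling, and no test is attached to them.

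The genes most like the set in pattern were ranked among 17191 tested genes with a mean of at least 50 that are no members, by Pearson r over the 21 libraries with the mean of the 9 genes after each was scaled. SEN1 and TPS11 had an r of 0.98 and 0.99 with that mean profile of which they are part, and KMD1 had 0.31. Outside the set, TPS9, another class II TPS gene, came first with 0.98. Its mean normalized count was 2943 in Col, 6717 in H89C4-7, 5366 in NEET10-10 and 2687 in NEET11-9. It was followed by NPR3, a salicylic acid receptor gene (0.98), the MA3-domain gene AT3G48390 (0.98), the glycosyl hydrolase gene AT2G27500 (0.98), UGE1, a UDP-glucose 4-epimerase gene (0.97), AT1G54740 (0.96), the acyl-CoA-binding protein gene ACBP3 (0.96) and the calcium-dependent kinase gene CDPK1 (0.96). UGE1 rose in H89C4-7 from 2049.6 to 7079 (log2 1.79, limma adjusted p = 8.21e-20). The most opposite patterns were those of AT4G30400 (-0.94), RDR6, an RNA-dependent RNA polymerase gene (-0.93), and MYB34, a regulator of indolic glucosinolate synthesis (-0.93). The 21 libraries share groups, so these r values describe likeness and carry no test.

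The other DIN genes moved with the set in H89C4-7. All 4 of them rose there (median log2 2.43), where the median of all tested genes was -0.000651 and 33.6% of all tested genes were higher. DIN11, an oxygenase gene, went from 7.04 ± 0.679 (SD, n = 3) to 157 ± 5.71 (log2 4.30, limma adjusted p = 3.02e-13). DIN9, a phosphomannose isomerase gene, rose by 2.74, and DIN3 and DIN4, subunits of branched-chain keto acid dehydrogenase, rose by 2.12 and 1.65 (adjusted p = 5.24e-18, 2.33e-19 and 8.62e-19). H89C11-7 also had 4 of 4 higher (median 0.57), NEET10-10 had 3 (0.46) and NEET5-4 had 3 higher and DIN9 lower (0.25). In these lines 19.8%, 15.6% and 14.1% of all tested genes were higher, and 16.9% were lower in NEET5-4. H89C23-10 had DIN11 higher and DIN4 lower (0.08), and NEET11-9 had DIN4 lower and the other 3 not called (-0.24). Of all tested genes, 11.5% were higher and 10.5% lower in H89C23-10, and 6.44% were lower in NEET11-9.

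A list of 8 other sugar-repressed genes is shown next to them. All 8 rose in H89C4-7 (median log2 1.11) and in NEET5-4 (0.47), 6 rose in NEET10-10 (0.76) and 5 in H89C11-7 (0.44), and none of the 8 fell in these 4 lines. The shares of all tested genes that were higher were 33.6%, 14.1%, 15.6% and 19.8%, in that order. NEET11-9 had 6 of 8 lower and none higher (-0.35), where 6.44% of all tested genes were lower. H89C23-10 had 3 higher and 4 lower (-0.16), against 11.5% and 10.5%. BCAT2, an aminotransferase of branched-chain amino acid breakdown, rose most in H89C4-7, from 359 ± 6.77 to 6702 ± 425 (log2 4.22, limma adjusted p = 3.62e-23). PRODH1, the first enzyme of proline breakdown, rose there by 2.20 and EXL1, a gene of extended carbon starvation, by 2.24 (adjusted p = 8.9e-20 and 6.21e-12). In NEET5-4 EXL1 rose by 3.37, and fell in NEET11-9, with a log2 change of -1.69.

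Regulators known to act upstream of the set were read as well. Of the 9 genes of the C and S1 groups of bZIP factors, which include bZIP1, 7 rose in H89C4-7 and none fell (median log2 0.40), where 33.6% of all tested genes were higher. bZIP25, bZIP9 and bZIP53 rose there by 0.84, 0.72 and 0.70 (limma adjusted p = 3.34e-12, 6.31e-13 and 1.37e-08). Higher and lower genes of this list numbered 1 and 2 in H89C11-7 (19.8% and 17.9% of all tested genes) and 1 and 3 in H89C23-10 (11.5% and 10.5%). The numbers were 2 and 2 in NEET10-10 (15.6% and 14.7%), 2 and 2 in NEET5-4 (14.1% and 16.9%) and 0 and 2 in NEET11-9 (4.49% and 6.44%). bZIP63, a target of SnRK1, fell in H89C23-10 and NEET11-9, with log2 changes of -0.46 and -0.53. Of 6 genes for subunits of SnRK1, 3 rose and none fell in H89C4-7 (median log2 0.20), where 33.6% of all tested genes were higher. NEET10-10 had 1 higher and 2 lower (-0.03), against 15.6% and 14.7%. NEET5-4 had 1 higher and 1 lower (-0.02), against 14.1% and 16.9%. H89C11-7 had 1 higher (19.8% of all tested genes), H89C23-10 1 lower (10.5%) and NEET11-9 none called (10.9%). KINB1, a regulatory subunit that sugar represses, rose by 1.03 in H89C4-7, 0.58 in NEET10-10 and 0.61 in NEET5-4. The catalytic subunits changed little: KIN11 rose by 0.37 in H89C4-7, and KIN10 was not called there (0.12, adjusted p = 0.122).

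Within the trehalose-6-phosphate pathway, the genes were split in H89C4-7, where 33.6% of all tested genes were higher and 33.0% lower. Of 8 tested TPS genes, 5 rose there, and TPS8, TPS10 and TPS11 of the set are among these 5. TPS1 and the class II genes TPS5 and TPS6 fell (log2 -0.41, -0.74 and -0.16, limma adjusted p = 2.93e-07, 1.95e-09 and 0.00287). TPS1, the active synthase, was also lower in H89C11-7, H89C23-10, NEET10-10 and NEET5-4 (-0.17 to -0.31), and it was not called in NEET11-9 (-0.11). Of 10 tested genes for phosphatases and trehalase, 8 fell in H89C4-7 and TRE1, the trehalase that splits trehalose, rose by 1.41 (median of the 10 log2 -0.74). TPPH, TPPE and TPPF fell there with changes of -1.69, -1.13 and -1.07 (adjusted p = 3.82e-11, 9.42e-10 and 5.45e-06). In the other lines 1 to 5 of the 10 were lower and at most 3 higher. Of all tested genes, 6.44% to 17.9% were lower and 4.49% to 19.8% higher in those lines.

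**Figure D4:**
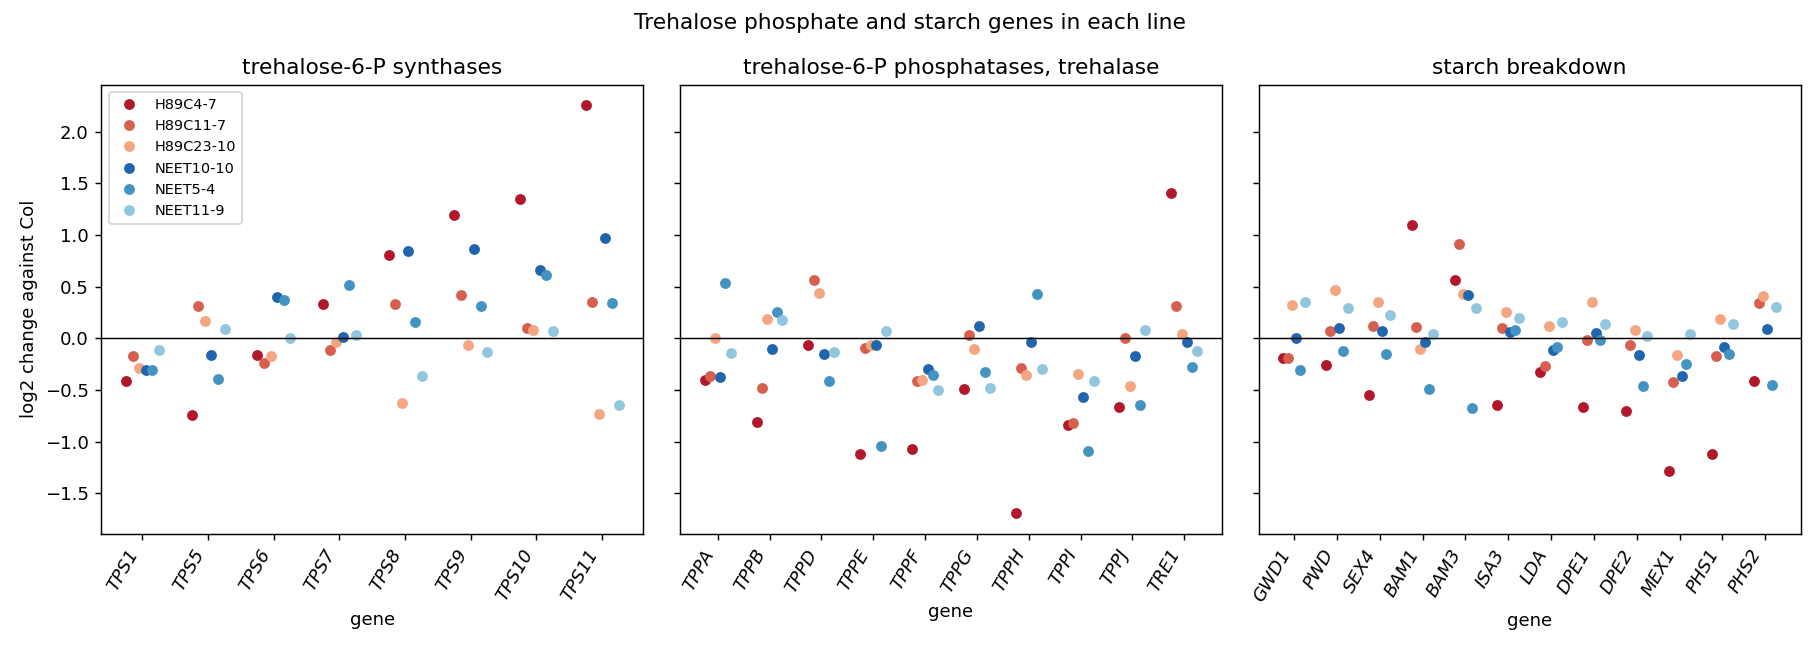
Log2 change against Col of the tested trehalose-6-phosphate synthase genes (left), phosphatase and trehalase genes (middle) and starch breakdown genes (right) in the 6 lines, 1 point per gene and line. In H89C4-7 TPS8 to TPS11 lie above 0 while most phosphatase and starch genes lie below 0, and TRE1 and BAM1 are the high points of their panels.

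Genes of starch breakdown ran against the set in several lines. In H89C4-7, 10 of 12 fell and BAM1 and BAM3, both beta-amylases, rose (1.09 and 0.56), where 33.0% of all tested genes were lower and 33.6% higher. The falls included MEX1, the maltose exporter (-1.29), and PHS1, the plastid phosphorylase (-1.12, limma adjusted p = 1.21e-14 and 1.74e-17). NEET5-4 had 9 of 12 lower and none higher (median log2 -0.21), where 16.9% of all tested genes were lower. H89C23-10 and NEET11-9, the lines in which most of the 9 genes fell, had 8 and 7 of 12 higher and none lower (0.29 and 0.18). In these lines 11.5% and 4.49% of all tested genes were higher. H89C11-7 had 2 higher and 4 lower (19.8% and 17.9% of all tested genes), and NEET10-10 had 1 higher and 2 lower (15.6% and 14.7%).

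Among 6 tested sugar-induced genes, GPT2, the plastid glucose-phosphate carrier, rose in H89C4-7 from 3.82 ± 3.27 to 142 ± 22.2 (log2 5.12, limma adjusted p = 3.91e-09), whereas APL3, APL4 and TPS5 fell (-1.97, -0.83 and -0.74). NEET5-4 had 5 of the 6 lower and none higher (median log2 -1.07), H89C23-10 and NEET10-10 each had 2 lower and none higher (-0.40 in both), H89C11-7 had 3 higher and none lower (0.16), and NEET11-9 had none called (-0.10). Of all tested genes, 33.6% were higher and 33.0% lower in H89C4-7, and 16.9% were lower in NEET5-4. In H89C23-10 10.5% and in NEET10-10 14.7% were lower, in H89C11-7 19.8% were higher, and in NEET11-9 10.9% were called. Of 8 genes of the raffinose pathway, 3 rose and 3 fell in H89C4-7 (median log2 -0.12), where 33.6% and 33.0% of all tested genes did. In H89C11-7 2 rose and 3 fell (-0.29), against 19.8% and 17.9%. In this list SIP2, an alkaline alpha-galactosidase gene related to DIN10, rose by 2.11 in H89C4-7 and 2.14 in H89C11-7. GOLS2, a galactinol synthase gene, fell in all 6 lines, with changes from -2.82 in H89C4-7 to -0.74 in NEET11-9. Of the enzymes around ASN1, glutamate dehydrogenase GDH2 rose by 1.89 in H89C4-7, ASN2 by 0.51 there, and ASN3 fell with a change of -0.44.

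Markers that could move with these genes were read beside them. Of 9 clock genes, 8 rose in H89C4-7 and none fell (median log2 0.65), where 33.6% of all tested genes were higher and 33.0% lower. Clock genes higher and lower numbered 3 and 5 in H89C11-7 (19.8% and 17.9% of all tested genes) and 5 and 3 in H89C23-10 (11.5% and 10.5%). NEET10-10 had 3 higher and 4 lower (15.6% and 14.7%), NEET5-4 2 and 7 (14.1% and 16.9%) and NEET11-9 4 and 2 (4.49% and 6.44%). Moves both ways can cancel in a sum. The summed normalized count of the 9 genes was 26417 to 26669.9 in H89C4-7 against 15497 to 16124 in Col, 15099 to 15317 in H89C11-7, 14731 to 14978 in H89C23-10, 15731 to 15963 in NEET10-10, 12637 to 13244 in NEET5-4 and 15779 to 16044 in NEET11-9. PRR9, a morning gene, changed by 1.85 in H89C4-7, -1.69 in NEET10-10 and -2.58 in NEET5-4. No hour of harvest is used here, and the part of the clock genes in the results was not tested. Of 8 shoot markers, none rose in any line but H89C23-10 (1 higher, against 11.5% of all tested genes). Of these markers, 4 fell in H89C4-7 (33.0% of all tested genes), 5 in H89C11-7 (17.9%), 4 in H89C23-10 (10.5%), 8 in NEET10-10 (14.7%), 5 in NEET5-4 (16.9%) and 2 in NEET11-9 (6.44%). Their summed count was 423945 to 477637 in Col, 401114 to 434694 in H89C4-7 and 297445 to 348088 in NEET10-10, and 355804 to 414016 over the libraries of the other lines.

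Of 8 root markers, 2 rose and 6 fell in H89C4-7 and none rose and 3 fell in H89C11-7, with summed counts of 98948 to 99945 and 80449.6 to 84080.0 against 81575 to 90103 in Col. In H89C23-10 and NEET5-4 1 rose and none fell, with sums of 114693 to 118278 and 84113 to 85222. In NEET10-10 none rose and 2 fell, with sums of 72063 to 75294, all below Col, and in NEET11-9 none was called, with sums of 91279.6 to 96883, all above Col. The sums of H89C4-7 and H89C23-10 also lay above Col, although the median log2 change of the 8 root markers was -0.69 and -0.15 there. A sum follows its most abundant genes. Of all tested genes, 33.6% were higher and 33.0% lower in H89C4-7, and 17.9% were lower in H89C11-7. In H89C23-10 11.5% and in NEET5-4 14.1% were higher, in NEET10-10 14.7% were lower, and in NEET11-9 10.9% were called. Seed markers were scarce, with sums of 123 to 322 in Col and 307 to 643 in H89C4-7 over 6 genes, of which SESA1 read 0 in Col. Seed markers higher and lower numbered 3 and 1 in H89C4-7, 3 and 2 in H89C11-7 (19.8% and 17.9% of all tested genes) and 1 and 0 in H89C23-10 (11.5% and 10.5%). In NEET10-10 they numbered 0 and 1 (15.6% and 14.7%), in NEET5-4 1 and 1 (14.1% and 16.9%) and in NEET11-9 2 and 1 (4.49% and 6.44%). Their median log2 changes were 2.00, 1.45, 1.24, -0.44, 0.25 and 0.15, in that order. All 8 shoot and all 8 root markers were detected in every group, and the labels give the tissue as complete seedlings. The part of tissue makeup in the results was not tested.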

How the data were processed

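TRIzol RNA from complete seedlings went into TruSeq libraries (per the labels' protocols). The deposited table holds a normalized signal: read counts per gene, scaled by the authors with 1 size factor per library. The submitters' processing notes name FastQC 0.11.7, STAR 2.4.0.1, DESeq2 1.20.0 and the TAIR10 genome, but no read counter. Values lay on steps of 1 read, and 100% of them returned to whole reads within a tolerance of 0.001.

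Values were used as log2(normalized count + 1). A gene was tested if 3 or more libraries had 10 or more. limma 3.58.1 (R 4.3.3, limma-trend) was fitted with 1 mean for each of 7 groups, 14 residual degrees of freedom and Benjamini-Hochberg adjustment, and constructs were compared on 1 mean per line. The fit was tested on simulated data. Alternatives were pseudocounts of 0.5 and 5, no filter, a filter of 50, edgeR 4.0.16 and DESeq2 1.42.0 on the recovered reads, TMM scaling, a replicate block, the spread of the compared groups alone, and each library or line left out. Leaving out Col replicate 1 and NEET10-10 replicate 1 together was added after seeing the data. The genes and lists were chosen with earlier results of these data known. Values are given for the 10 genes, for up to 4 genes of a list with the smallest adjusted p in H89C4-7, and for the genes most and least like the set in pattern; any other gene named was picked after its values were seen. Gene positions, names and promoters come from RefSeq TAIR10.1, which held 32548 of the 32833 loci; 1 promoter window is not reported here.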

Additional observations from a re-analysis of the deposited data

Results flagged for a closer look

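Lines of 1 construct went opposite ways against Col for several genes, with both changes called and the difference between the lines itself called by limma (each with 3 libraries, adjusted over all tested genes). The differences below are on the log2 scale, the first line minus the second. Between H89C4-7 and H89C11-7 the difference was 1.65 for ASN1 and -0.65 for KMD1. Between H89C4-7 and H89C23-10 the difference was 3.07 for SEN1, 1.82 for ASN1, 2.58 for bZIP1, 1.44 for TPS8 and 2.98 for TPS11. Between H89C11-7 and H89C23-10 the difference was 1.14 for SEN1, 0.97 for KMD1, 0.96 for TPS8 and 1.08 for TPS11. Between NEET10-10 and NEET5-4 it was 1.00 for KMD1. Between NEET10-10 and NEET11-9 the difference was 1.86 for SEN1, 1.90 for ASN1, 1.50 for DIN10, 1.28 for bZIP1, 1.21 for TPS8 and 1.62 for TPS11. Between NEET5-4 and NEET11-9 the difference was 1.62 for SEN1, 2.05 for ASN1, 1.88 for DIN10, 0.53 for TPS8 and 0.98 for TPS11. The largest adjusted p of these 23 differences was 4.6e-08. Most pairs set H89C23-10 or NEET11-9, the lines in which most of the genes fell, against another line of their construct, and KMD1 and ASN1 also separated H89C4-7 from H89C11-7. The KMD1 call against Col in H89C4-7 (adjusted p = 0.0354) was lost without Col replicate 2 or 3, without any 1 H89C4-7 library and with no filter. The TPS8 call in NEET5-4 (adjusted p = 0.00916) was lost without Col replicate 1 and with the spread of NEET5-4 and Col alone. Both calls were kept without Col replicate 1 and NEET10-10 replicate 1 together (log2 -0.24 and 0.10, limma adjusted p = 3.78e-07 and 0.0268). The lines of a construct differ in AtNEET RNA, and its part in these differences was not tested.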

How the results depend on the processing

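Of the 54 log2 changes against Col, 47 kept their direction and their side of the threshold under every alternative run, and none reversed. Leaving out 1 library at a time gave 6 lost and 4 gained calls, and the other settings 2 lost and 4 gained. The counts of genes called ranged from 8 to 9 in H89C4-7, 7 to 8 in H89C11-7, 8 to 9 in NEET10-10 and 7 to 9 in NEET5-4 when 1 library was left out, and stayed at 7 in H89C23-10 and NEET11-9. The lost calls were KMD1 in H89C4-7, also lost with no filter (adjusted p = 0.0577), and TPS8 in NEET5-4. The gained calls were bZIP1 and TPS10 in H89C11-7, DIN2 in NEET10-10, bZIP1 in NEET5-4, and KMD1 in NEET11-9 (log2 -0.17, adjusted p = 0.000747, without Col replicate 1 and NEET10-10 replicate 1). The cause was not tested. Same-numbered libraries did not deviate together (63 correlations of deviations from group means, from -0.068 to 0.0893), so the numbers were not taken as pairs. A fit with the replicate block changed 1 of the 54 calls, bZIP1 in NEET5-4 (log2 -0.23, adjusted p = 0.0447), and 9 instead of 8 of the genes were then called in that line. Depth limits DIN2 in NEET5-4 and DIN11 and GPT2 in Col, and KMD4 could not be tested.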
